A study of Mus musculus with 12 samples.

Results

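Left ventricular RNA of transgenic mice was compared after 1 week of the β-adrenergic agonist isoproterenol (ISO) or of vehicle, in mice that carry a mutant β1-adrenergic receptor and no added microRNA. The comparison rests on 6 of the 12 arrays of the series, 3 labelled ISO and 3 labelled vehicle, each from 1 animal. All animals were C57BL/6J and carried the cardiac-specific GRK-beta1AR transgene. Mice with this transgene alone are called TG. The TG ISO animals were 1 female of 9 weeks and 2 males of 10 weeks. The TG vehicle animals were 1 female of 9 weeks, 1 male of 9 weeks and 1 male of 12 weeks. The other 6 arrays, from double transgenic (DTG) mice that also overexpress miR-150 from a CAG promoter, 3 with ISO and 3 with vehicle, served to estimate the spread and to compare the response. With ISO they were 2 males of 10 and 11 weeks and 1 female of 12 weeks, and with vehicle 1 female and 2 males of 10 weeks. Every group thus carried the mutant receptor, so none shows a heart with the normal receptor alone. The ventricle was profiled whole, and fewer cells of a type cannot be told apart from less RNA per cell. Markers of heart muscle and of other cell types were not analysed here, because no table used here pairs the array's probes with their genes.

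The β1-adrenergic receptor is the main catecholamine receptor of cardiomyocytes. Once bound by agonist it activates the stimulatory G protein, raising cyclic AMP and the activity of protein kinase A, which phosphorylates calcium handling proteins and the transcription factor CREB. G protein-coupled receptor kinases (GRKs) then phosphorylate the receptor, which lets β-arrestin bind, ends G protein coupling and starts arrestin-dependent signalling. The GRK-beta1AR protein lacks the GRK phosphorylation sites, so this second branch is impaired. ISO stimulates both β1 and β2 receptors, and prolonged infusion is a standard way to stress the rodent heart.

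The arrays carry probes for long noncoding RNAs and mRNAs, and the first letters of a probe's name give its class. All levels are log2 of the processed signal relative to the 75th percentile of the same array, so that 0 is that percentile and a difference of 1 is 2-fold. Of 60915 probes, 45152 passed a detection filter (flagged as well above background on 3 or more of all 12 arrays) and had a value in both TG groups. The 75th percentile of the processed signal was 401, 484 and 244 for the ISO arrays 1 to 3, and 301, 337 and 313 for the vehicle arrays 1 to 3.

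TG vehicle 1 and TG ISO 3 detected the fewest probes. On them, 53.0% and 58.2% of probes were well above background, against 66.8% to 67.3% on the other 4 TG arrays. The median of the 15 negative probes was -5.48 on TG vehicle 1 and -6.09 on TG ISO 3, and between -7.05 and -6.93 on the other 4. A dim probe therefore had a higher floor on 1 array of each group.

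**Figure D1:**
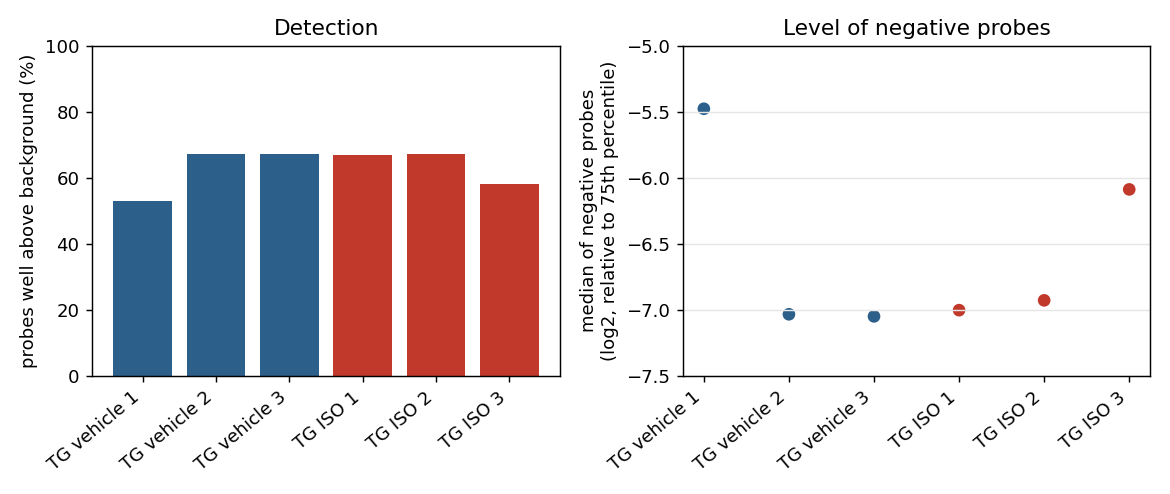
Percent of probes well above background (left, bars from 0) and the median log2 level of the negative probes relative to the array's 75th percentile (right) for each of the 6 TG arrays, vehicle in blue and ISO in red. TG vehicle 1 and TG ISO 3 had the lowest detection, 53.0% and 58.2%, and the highest negative probes, -5.48 and -6.09.

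TG ISO 3 and TG vehicle 3 stood apart from the other arrays of their groups, and each was closer to the group that its label does not name. Across probes in the brightest band of signal level, TG vehicle 3 had a mean Pearson correlation of 0.976 with TG ISO 1 and 2 and of 0.880 with TG vehicle 1 and 2 (11089 probes). Across the dimmest band these values were 0.778 and 0.226 (11213 probes). TG ISO 3 correlated at 0.982 with TG vehicle 1 and 2 and at 0.902 with TG ISO 1 and 2 in the brightest band, and at 0.516 and 0.300 in the dimmest. The correlations describe pairs of arrays and treat no probe as a replicate. The headers gave these 2 arrays a scan time of their own (scan 3), apart from the scan of TG ISO 1, TG ISO 2, TG vehicle 1 and TG vehicle 2 (scan 2). The array positions do not repeat among the 6, which allows all of them on 1 slide but does not show it. Slides were assigned here from the scan times and these positions, with all 6 on slide 2. Each result is therefore given over all 6 arrays and without this pair.

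Over all 6 arrays, no probe separated ISO from vehicle after adjustment. In limma, 0 of 45152 probes (0%) were called at an adjusted p of 0.05, with 0.349 as the lowest value. With array weights, which gave the replicate 3 arrays of TG the lowest weights of the 12, 5275 were called and 14905 had an unadjusted p under 0.05. At an unadjusted p under 0.05 there were 827 probes (1.83%), of which 445 (0.986%) were higher and 382 (0.846%) lower with ISO. By the methods' t-test, 818 probes passed without adjustment and 0 with Benjamini-Hochberg adjustment. The 2 groups did not overlap at 2049 of the 44920 probes with a value on all 6 arrays (4.56%), 1010 higher with ISO (2.25%) and 1039 lower (2.31%). The median absolute difference was 0.211 on the log2 scale, below the median standard deviation within the groups of 0.434.

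The difference between ISO and vehicle ran in opposite directions in the 2 scans. In scan 2 the median absolute difference was 0.467 and in scan 3, with 1 array of each group, 0.635. The sign was the same in both scans for 21.7% of 44979 probes. A further 16296 probes were higher with ISO in scan 2 and lower in scan 3, and 18914 were lower in scan 2 and higher in scan 3. No array is shared by these 2 differences. Of the 3480 probes called within scan 2 that also had a value in scan 3, 54 (1.55%) kept their sign there.

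**Figure D2:**
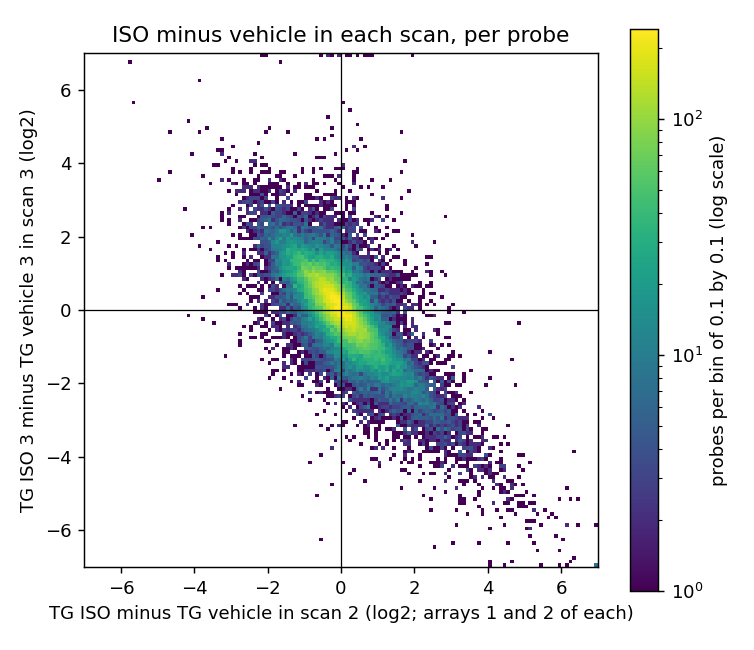
Difference between ISO and vehicle in scan 2 (horizontal axis, log2, arrays 1 and 2 of each TG group) and in scan 3 (vertical axis, log2, TG ISO 3 minus TG vehicle 3) for 44979 probes, with colour for the number of probes per bin on a log scale and 28 probes beyond 7 in either direction drawn at the edge. The cloud runs from upper left to lower right, and 21.7% of the probes have the same sign on both axes.

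The opposition held at every size of difference examined. Of the probes with a difference of at least 2-fold in both scans, 3818 were higher with ISO in scan 2 and lower in scan 3, 2881 were the reverse, 81 were higher in both and 61 lower in both. At 4-fold these counts were 1165, 282, 1 and 0. At least 8-fold higher with ISO in scan 2 were 438 probes, and 354 of them were at least 8-fold lower with ISO in scan 3. In these 354 probes, chosen for both differences and so given as a description only, the median level was 0.04, 0.78 and -3.94 on the ISO arrays 1 to 3, and -3.73, -3.88 and 0.53 on the vehicle arrays 1 to 3. The 6 DTG arrays lay between -3.88 and -3.45, so that TG ISO 1, TG ISO 2 and TG vehicle 3 were high and the other 9 arrays low. The array's 3′ and 5′ control probes for Gapdh divided the TG arrays in the same way. The 3′ minus 5′ difference, a sign of RNA quality, was 1.18, 1.33 and 1.3 on TG ISO 1, TG ISO 2 and TG vehicle 3, and 1.02, 1.11 and 0.91 on TG ISO 3, TG vehicle 1 and TG vehicle 2. The 5′ probe was at 7.54, 7.05 and 7.06 on the first 3 and at 8.08, 8.02 and 7.91 on the others. The 3′ probe of Gapdh was also lower on the first 3, at 8.72, 8.38 and 8.35 against 9.11, 9.12 and 8.82. The corresponding difference for Pgk1 overlapped, at 8.15, 8.23 and 7.89 against 8.0, 8.1 and 7.24. The 3′ probe of Pgk1 was lower on the first 3 without overlap, at 7.26, 6.83 and 7.09 against 7.35, 7.30 and 7.46. Of the 3 control probes of the E1A and ERCC sets that were detected on all 6 TG arrays, 1 was higher and 1 lower on the same 3 arrays without overlap. The part of RNA quality in the split was not tested. ASMM10P made up 350 of the 354 (98.9%), near its 97.5% of all probes tested. In the opposite direction, 25 probes were at least 8-fold lower in scan 2 and at least 8-fold higher in scan 3, so that the 2 directions were far less equal at 8-fold than at 2-fold. No probe was at least 8-fold higher, or at least 8-fold lower, in both scans.

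Without TG ISO 3 and TG vehicle 3, many probes separated the groups. The limma fit of the remaining 10 arrays called 7722 of 45144 probes (17.1%), 4209 higher with ISO (9.32%) and 3513 lower (7.78%). A fit of the 4 TG arrays of scan 2 alone, with 2 residual degrees of freedom, called 3493 (7.74%), 2387 higher (5.29%) and 1106 lower (2.45%). Without adjustment, 14329 probes (31.7%) passed 0.05 in the first of these fits and 13751 (30.5%) in the second. The pair was left out because of its values on these same probes, so the larger counts are no independent evidence of an effect of ISO. Of the 827 probes at an unadjusted p under 0.05 over 6 arrays, 276 (33.4%) were among those called without the pair, which is 3.57% of the 7722, where 17.1% of all probes were called. The 2 fits share 4 TG arrays. With TG ISO 3 alone left out, 1 probe was called and the unadjusted threshold of 0.05 was passed by 3778. With TG vehicle 3 alone left out, these numbers were 0 and 5698.

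The result changed with signal level. The probes tested were divided into 4 bands of equal size by their mean level over all 12 arrays, with limits at -3.42, -1.5 and 0.91. Over 6 arrays, the share at an unadjusted p under 0.05 was 4.46% in the dimmest band, 1.70% in the second, 0.540% in the third and 0.629% in the brightest. The median absolute difference was 0.323 in the dimmest band and 0.179 to 0.195 in the others. Both orders turned under normexp background correction, where the shares from the dimmest to the brightest band were 0.275%, 0.726%, 1.05% and 1.47%, and the median absolute differences 0.114, 0.119, 0.152 and 0.185. The spread was also largest in the dimmest band, with a median standard deviation within groups of 0.638 there and of 0.358 in the brightest. The dimmest band thus held 503 of the 827 probes, 261 higher and 242 lower with ISO, on arrays whose floors differed as given above. In the brightest band, 53 of 71 such probes were higher with ISO.

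Without the replicate 3 arrays, the order over the bands depended on the fit and on the threshold. In the fit of 10 arrays the share called increased with signal level, from 12.9% and 16.9% to 18.7% and 19.9%. In the fit of the 4 TG arrays of scan 2 it was 8.43%, 7.69%, 7.93% and 6.89% from the dimmest to the brightest band, with no such increase. The balance of directions among the probes called differed as well. In the fit of 10 arrays, in the dimmest band 1014 probes were higher with ISO and 443 lower, in the second 1179 and 729, in the third 1117 and 989, and in the brightest 899 and 1352. In the fit of scan 2 alone the brightest band had 476 higher and 302 lower, and higher calls outnumbered lower ones in all 4 bands. Without adjustment that fit had 2018 higher and 1261 lower in the dimmest band, and 1504 and 2215 in the brightest. The fit of 10 arrays then had 1509 higher and 2528 lower in the brightest band, so the 2 fits leaned the same way there. The median difference went from 0.04 in the dimmest band to -0.11 in the brightest. The 2 scans also disagreed more often at higher signal, where 17.7% of probes in the brightest band and 29.7% in the dimmest had the same sign in both.

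**Figure D3:**
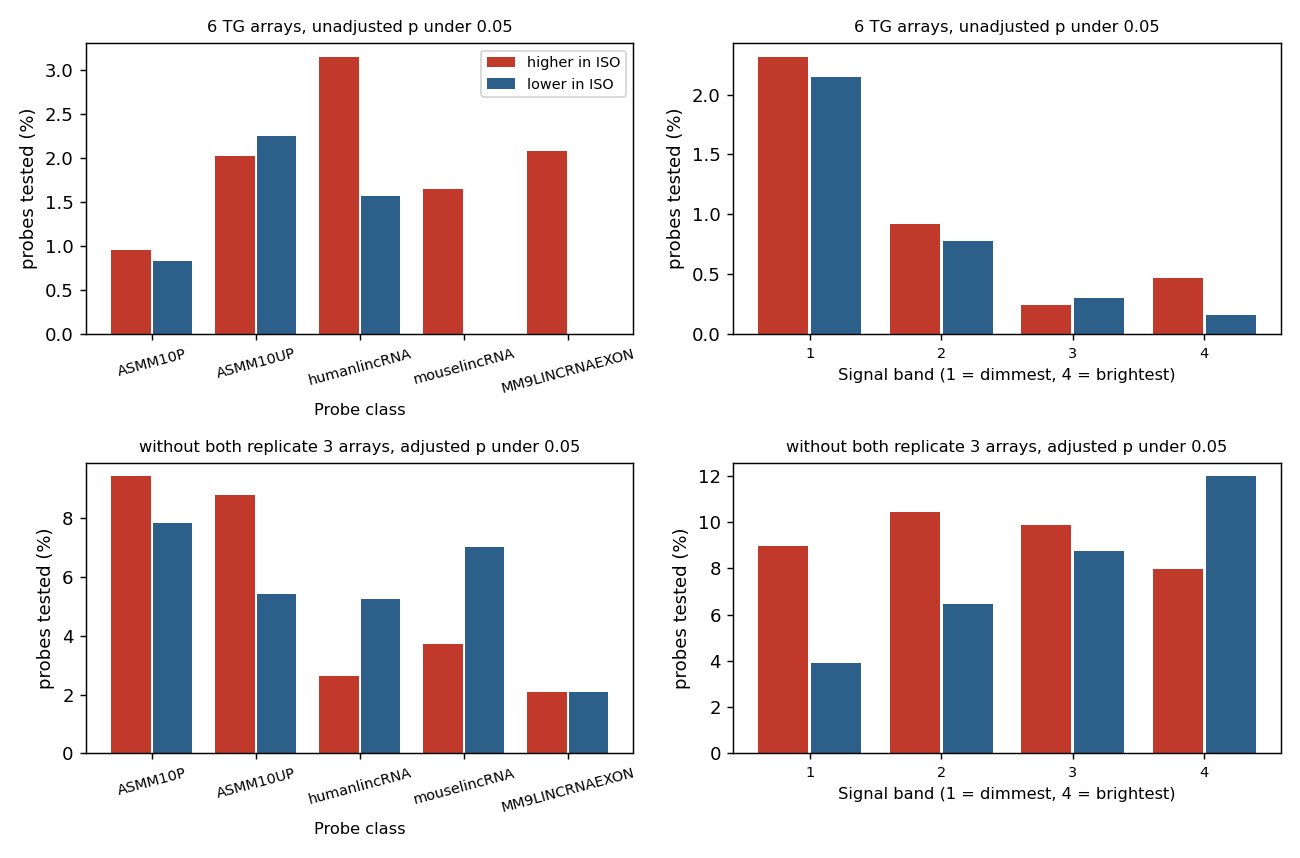
Percent of the probes tested that were higher (red) or lower (blue) with ISO, by probe class (left) and by band of signal level (right). The upper row shows an unadjusted p under 0.05 over all 6 TG arrays, with 4.46% of the dimmest band, and the lower row an adjusted p under 0.05 in the fit of 10 arrays without both replicate 3 arrays, with 12.9% of the dimmest and 19.9% of the brightest band.

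ASMM10P, the class that holds most of the array, had 44022 of its 58141 probes tested (75.7%). Over 6 arrays, 785 of them (1.78%) passed an unadjusted p of 0.05, 419 of them higher and 366 lower with ISO, near the 1.83% of all probes. Their median difference was -0.01. Without the replicate 3 arrays, 7598 (17.3%) were called, 4147 higher and 3451 lower, and the median was -0.05.

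ASMM10UP was a smaller and dimmer class, with 444 of 923 probes tested (48.1%) and a median level of -3.03 against -1.5 over all probes tested. Over 6 arrays, 19 (4.28%) passed this unadjusted threshold, of which 9 were higher and 10 lower with ISO. Of these, 18 lay in the dimmest band, where 9.94% of the class and 4.35% of ASMM10P had such a p. The share of the class was 0.676% with normexp correction, 0.930% with a filter on all 12 arrays and 1.48% with a filter on all 3 arrays of a TG group, against 0.881%, 1.06% and 1.57% of all probes, so its higher share was lost under each. Without the pair, 63 were called in the fit of 10 arrays (14.2%, against 17.1% of all probes), 39 higher and 24 lower with ISO, and 29 in the fit of scan 2 alone (6.53% against 7.74%).

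The probes named for human long intergenic noncoding RNAs (lincRNAs) had 381 of 1104 tested (34.5%), with a median level of -3.75. Their share at an unadjusted p under 0.05 over 6 arrays was 4.72%, or 18 probes, with 12 higher and 6 lower with ISO. The dimmest band held 15 of the 18, which is 7.01% of the class in that band. With normexp correction the share of the class was 1.05%, with a filter on all 12 arrays 0.794% and with no filter 1.63%, against 0.881%, 1.06% and 1.72% of all probes. With a filter on all 3 arrays of a TG group it was 3.35% against 1.57%, and with quantile normalization 6.82% against 1.99%. It was 2.62% against 1.33% without TG ISO 2, 2.89% against 1.81% by the methods' t-test and 11.0% against 12.6% without TG vehicle 3. Their median difference was 0.03. Without the pair, 30 probes (7.89%) were called in the fit of 10 arrays, against 17.1% of all probes, and 20 of the 30 were lower with ISO. In the fit of scan 2 alone these shares were 6.58% and 7.74%, with 10 higher and 15 lower. The difference in share was not tested. The median difference was then -0.16.

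The mouselincRNA probes, from a catalogue of mouse lincRNAs, gave 242 of 649 tested (37.3%) at a median level of -3.83. Over 6 arrays, 4 (1.65%) had an unadjusted p under 0.05, and all 4 were higher with ISO, near the 1.83% of all probes. The share moved to 4.96% without TG ISO 1, 0.413% without TG ISO 2, 4.13% without TG vehicle 1, 3.72% with quantile normalization and 0.413% by the methods' t-test. Without the pair, 26 were called in the fit of 10 arrays (10.7% against 17.1% of all probes), 9 higher and 17 lower, and 11 in the fit of scan 2 alone (4.55% against 7.74%), 7 higher and 4 lower. The median difference without the pair was -0.23, against -0.05 over all probes. The MM9LINCRNAEXON probes had 48 of 83 tested, with 1 (2.08%) at an unadjusted p under 0.05 and 2 (4.17%) called without the pair, where 17.1% of all probes were.

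The sign before the last part of the name divides the human lincRNA and mouselincRNA probes into nearly equal sets. Among the human lincRNA probes, 547 of the 557 identifiers had probes of both signs, and 189 of 549 plus probes (34.4%) and 192 of 555 minus probes (34.6%) were tested. Their median differences between ISO and vehicle were 0.07 for plus and 0.02 for minus. Among the mouselincRNA probes 34.8% of plus and 39.8% of minus probes were tested, and both median differences were 0.00. The MM9LINCRNAEXON probes had 50 of plus and 33 of minus sign, with 12 of 71 identifiers in both. What the sign stands for is not given in the sources used here.

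Few probes were detected in 1 TG group and not in the other. On all 3 ISO arrays and on none of the 3 vehicle arrays, 10 of 60915 probes were well above background (0.0164%). The reverse held for 8 (0.0131%). Without the replicate 3 arrays these numbers were 1271 (2.09%) and 89 (0.146%). TG vehicle 1, with the highest floor of the 6 arrays, was then 1 of only 2 vehicle arrays, and its part in the excess was not tested.

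Of the 10 probes detected with ISO only, 8 were ASMM10P and 2 were human lincRNA probes, chosen here with their values known. The probe humanlincRNA1563+_P1 was at -2.51, -2.64 and -3.36 on TG ISO 1, 2 and 3. It was not well above background on any TG vehicle array, where the processed values were -4.66, -5.34 and -4.84. A bound on the fold was taken from the mean, over the vehicle arrays, of the lowest signal that counted as well above background on each, which was -3.24, -4.87 and -4.81 on TG vehicle 1, 2 and 3. By this rule the ISO mean was at least 2.77-fold higher. Its limma adjusted p was 0.999 over 6 arrays and 0.00511 without the pair. The probe humanlincRNA1222+_P1 was at -3.75, -4.39 and -3.06 with ISO and not well above background with vehicle, at -5.45, -5.25 and -5.93. Its ISO mean of -3.73 lay below the lowest such signal of TG vehicle 1, so no fold is given, and the adjusted p was 0.999 over 6 arrays and 0.578 without the pair.

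The genes named here are 15 housekeeping genes, each printed as 20 spots of 1 probe and matched by its RefSeq accession to the mouse gene table of GRCm38.p6. They were 0 of 15 under an unadjusted p of 0.05 in limma over 6 arrays, beside 1.83% of all probes, and their adjusted p was 0.999 or higher. In 14 of 15 the probe was well above background on all 6 TG arrays. Repeated spots on 1 array had a standard deviation of 0.127 or less in all of them but Gk and Ldhal6b. Between scans, the difference of ISO and vehicle had opposite signs in 13 of 15 and the same sign in Actb and Hprt. Several of these genes have near-identical processed copies in the mouse genome, Gapdh, Ppia and Rpl13a among them, and a probe may bind their transcripts too.

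Gusb, the lysosomal β-glucuronidase (chr5:129989011-130003049), spread over the widest range of the 15 genes, 1.92 on the log2 scale. Its level was 4.02, 4.57 and 2.67 on TG ISO 1, 2 and 3, and 2.65, 2.89 and 4.19 on TG vehicle 1, 2 and 3. TG ISO 1, TG ISO 2 and TG vehicle 3 were high and the other 3 low, so the groups overlapped. Over 6 arrays the difference was 0.51 ± 0.48 (SE, n = 3 against 3 in limma). Within scan 2 it was 1.53 and in scan 3 it was -1.51. Without the pair, limma gave 1.53 ± 0.25 with an adjusted p of 0.00457, and the 4 arrays of scan 2 alone gave 0.0446. The 6 DTG arrays resembled the low ones, at 2.66 ± 0.22 with ISO and 2.63 ± 0.13 with vehicle (SD, n = 3).

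CREB binds the cyclic AMP response element, of which the full form reads TGACGTCA and is the same on both strands. It was searched in the RefSeq promoter sequences of GRCm38.p6, 250 bases before to 50 after each annotated start. Gusb was the only gene to hold it among the 13 of the 15 with a sequence, against 1.79% of 32851 promoters. It is shown because Gusb had the widest range, and the search was made after that was seen. The 30 bases around it lie at chr5:130003035-130003064 on the minus strand, with the element in capitals, beginning 4 bases before the start.
Gusb: caggcagcggcTGACGTCAggcatatgggg
The match describes these letters and not the binding of a factor.

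Rpl13a encodes a protein of the large ribosomal subunit, and Ppia encodes the prolyl isomerase cyclophilin A. Rpl13a was at 4.47, 4.51 and 3.68 on TG ISO 1, 2 and 3, and at 3.53, 3.39 and 4.41 on the vehicle arrays. Ppia was at 7.75, 7.78 and 7.04 with ISO, and at 7.11, 6.89 and 7.66 with vehicle. Both followed Gusb, with TG vehicle 3 among the high arrays and TG ISO 3 among the low. Their differences over 6 arrays were 0.44 ± 0.30 and 0.30 ± 0.26 (SE). Without the pair they were 1.03 ± 0.18 (limma adjusted p = 0.00620) and 0.76 ± 0.19 (adjusted p = 0.0267), and within scan 2 alone the adjusted p was 0.0551 and 0.0985. Gusb, Rpl13a and Ppia were the 3 of 15 housekeeping genes called without the pair, beside 17.1% of all probes, and all 3 were higher with ISO.

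The third gene of protein handling, Hsp90ab1, which encodes a cytosolic chaperone, ran the other way. It was at 7.12, 6.66 and 7.52 on TG ISO 1, 2 and 3, and at 7.46, 7.64 and 7.03 on TG vehicle 1, 2 and 3. The difference was -0.28 ± 0.26 over 6 arrays and -0.66 ± 0.23 without the pair (limma adjusted p = 0.0853). TG ISO 3 had the highest ISO level and TG vehicle 3 the lowest vehicle level.

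Tfrc, the transferrin receptor that brings iron into cells, had the second widest range, 1.69. Its level was 4.82, 5.28 and 5.76 with ISO, and 5.86, 6.12 and 4.43 with vehicle. TG vehicle 3 was the lowest of all 6 arrays. The difference was -0.18 ± 0.43 over 6 arrays, -0.94 in scan 2 and 1.33 in scan 3. Without the pair its adjusted p was 0.0724 in limma. On the DTG arrays its level was 6.29 ± 0.24 with ISO and 6.09 ± 0.45 with vehicle (SD, n = 3). Both means lay above the highest TG ISO array, at 5.76, but DTG vehicle 2 was at 5.59. TG vehicle 2, at 6.12, lay above the DTG vehicle mean, so the arrays of the 2 genotypes overlapped.

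Actb, which encodes cytoplasmic β-actin, was the only 1 of the 15 genes whose TG groups did not overlap, beside 4.56% of all probes. It was at 5.86, 6.03 and 5.68 on TG ISO 1, 2 and 3, and at 5.61, 5.38 and 5.0 on TG vehicle 1, 2 and 3. The lowest ISO array thus exceeded the highest vehicle array by a small margin. The difference was 0.52 ± 0.24 (SE), or 1.44-fold, with an unadjusted p of 0.0542 in limma and an adjusted p of 0.999. It had the same sign in scan 2 (0.45) and scan 3 (0.68), and in all 25 alternatives, where it ranged from 0.36 to 0.68 and was never called. The lack of overlap fixes this sign within each scan and with any 1 array left out. Tuba1b, an α-tubulin, was at 7.94, 7.93 and 7.59 with ISO and at 7.61, 7.34 and 7.88 with vehicle, and its difference of 0.46 in scan 2 became -0.29 in scan 3.

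**Figure D4:**
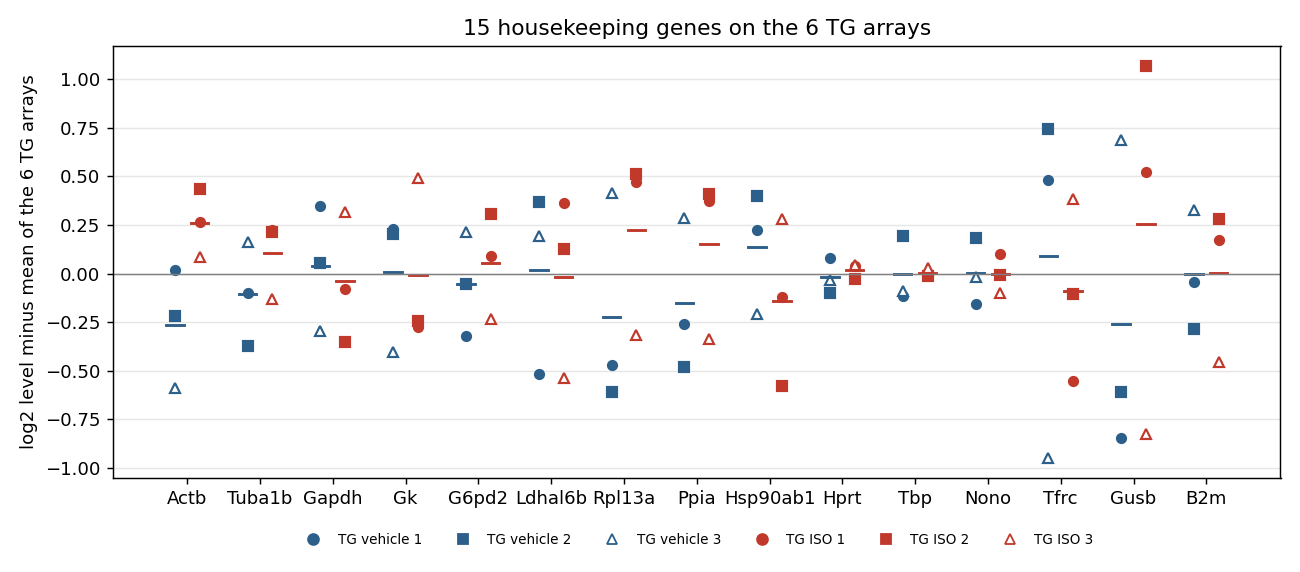
Log2 level of 15 housekeeping genes on each TG array minus the mean of the 6 TG arrays for that gene, vehicle in blue and ISO in red, with horizontal bars for group means and open triangles for the replicate 3 arrays. For Gusb, Rpl13a and Ppia the triangles lie on the side of the other group, and for Actb all 3 ISO arrays lie above all 3 vehicle arrays.

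Among the genes of glucose and glycerol metabolism, Gapdh, a glycolytic dehydrogenase, was at 8.99, 8.72 and 9.39 with ISO and at 9.42, 9.13 and 8.78 with vehicle. Its difference was -0.07 ± 0.25 over 6 arrays and -0.42 ± 0.24 without the pair. Gk, glycerol kinase, was at -3.19, -3.15 and -2.42 with ISO and at -2.68, -2.71 and -3.31 with vehicle. In both, TG ISO 3 was the highest ISO array and TG vehicle 3 the lowest vehicle array. G6pd2, a glucose-6-phosphate dehydrogenase, lay between -1.07 and -0.44 on the 6 arrays, and its groups overlapped. Ldhal6b, a lactate dehydrogenase-like enzyme, was at or near background, between -5.07 and -4.17, and was well above background on 2 of 3 arrays in each group. None of the 4 was called with or without the pair.

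B2m, the light chain of major histocompatibility class I molecules, was at 7.39, 7.5 and 6.76 with ISO and at 7.18, 6.93 and 7.55 with vehicle. The group means were equal to 2 decimals, 7.22 and 7.22, while the difference was 0.39 in scan 2 and -0.78 in scan 3.

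Hprt, Tbp and Nono varied least over the 6 TG arrays. Hprt, a purine salvage enzyme, lay between 5.65 and 5.83, and Tbp, the TATA-binding protein, between 0.51 and 0.82. Nono, an RNA-binding protein of paraspeckles, lay between 3.02 and 3.36. The difference between ISO and vehicle was 0.04 ± 0.16 for Hprt, 0.01 ± 0.21 for Tbp and -0.01 ± 0.21 for Nono (SE). Without the pair, it was 0.02, -0.05 and 0.03. Each of the 3 thus varied by at most 0.34 over the 6 TG arrays.

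The response of the 15 genes to ISO was also set against that of DTG mice, as the limma interaction of genotype and treatment. Over all 12 arrays, limma called 0 of 45152 probes for this interaction (0%) and found 1971 (4.37%) at an unadjusted p under 0.05. For the housekeeping genes the lowest adjusted p was 0.927. Without the TG replicate 3 arrays, 3 of 15 were called, beside 4034 of 45144 probes (8.94%). The change with ISO was then smaller in DTG than in TG by 1.5 ± 0.32 for Gusb (adjusted p = 0.0250), by 1.06 ± 0.23 for Rpl13a (adjusted p = 0.0277) and by 0.95 ± 0.25 for Ppia (adjusted p = 0.0463). All 3 DTG ISO arrays and DTG vehicle 3 were assigned to slide 1, and the other 2 DTG vehicle arrays and all TG arrays to slide 2. The change in DTG is thus largely confounded with slide. With slide as a block in the same fit, chosen after seeing the data, all 3 calls were lost, at 1.47 ± 0.38 for Gusb (adjusted p = 0.0754), 0.93 ± 0.25 for Rpl13a (adjusted p = 0.0818) and 0.86 ± 0.28 for Ppia (adjusted p = 0.123), beside 4.27% of all probes called. By this assignment no slide held ISO and vehicle arrays of both genotypes. Slide 1 held the DTG ISO arrays with DTG vehicle 3 alone, so the change in DTG within a slide rested on 1 vehicle array. With slide as a block, that change was 0.061 for Gusb, 0.10 for Rpl13a and -0.096 for Ppia.

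In each class of at least 100 tested probes, the probes with the smallest unadjusted p in each direction were examined among those detected on all 6 TG arrays without overlap of the groups. They were chosen for this difference and are given as a description. Of all 30883 probes tested and detected on all 6 TG arrays, 4.13% had no overlap, 2.01% higher and 2.13% lower with ISO. ASMM10P held 609 such probes higher and 651 lower, 4.14% of its detected probes. ASMM10P017534 was at -2.43, -2.30 and -2.21 on TG ISO 1, 2 and 3 and at -3.0, -3.26 and -2.80 on TG vehicle 1, 2 and 3, a difference of 0.71 ± 0.18 (SE). ASMM10P030069 was at -2.58, -2.74 and -1.75 with ISO and at -3.14, -3.76 and -3.36 with vehicle. In the other direction, ASMM10P032179 was at -3.51, -3.97 and -3.38 with ISO and at -2.75, -2.93 and -2.75 with vehicle, a difference of -0.81 ± 0.20. ASMM10P002826 was at -2.65, -2.95 and -2.56 with ISO and at -1.96, -1.83 and -1.0 with vehicle. Each of the 4 lay in the second band of signal level. Without the pair, the adjusted p was 0.0265 for ASMM10P017534, 0.115 for ASMM10P030069, 0.0260 for ASMM10P032179 and 0.0527 for ASMM10P002826 in the fit of 10 arrays, and within scan 2 alone none of the 4 was called, with 0.0790 as the lowest value. With normexp correction the differences were 0.23 for ASMM10P017534, 0.34 for ASMM10P030069, -0.39 for ASMM10P032179 and -0.74 for ASMM10P002826.

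ASMM10UP held 5 such probes higher and 3 lower with ISO, 3.74% of its detected probes. ASMM10UP823 was at -2.84, -2.70 and -2.79 with ISO and at -3.11, -3.27 and -3.21 with vehicle, and ASMM10UP422 differed by 0.38 ± 0.18 (SE). ASMM10UP084 was at -3.54, -2.78 and -2.53 with ISO and at -2.50, -1.94 and -2.0 with vehicle, so that its nearest arrays lay close together. ASMM10UP294 differed by -0.32 ± 0.21. With normexp correction the 4 differences were 0.079 for ASMM10UP823, 0.16 for ASMM10UP422, -0.35 for ASMM10UP084 and -0.18 for ASMM10UP294.

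Among the human lincRNA probes, 4 were higher and 2 lower, 4.88% of those detected. The brightest was humanlincRNA1050+_P1, at 3.22, 3.82 and 2.54 on TG ISO 1, 2 and 3 and at 2.39, 1.1 and 2.42 on TG vehicle 1, 2 and 3. The difference was 1.22 ± 0.57 (SE), or 2.33-fold, and the margin between the groups was narrow. It was 1.77 in scan 2 and 0.12 in scan 3. In DTG mice the same probe was at 0.51 ± 0.95 with ISO and 2.63 ± 0.75 with vehicle (SD, n = 3). The others were humanlincRNA1114+_P1, with a difference of 0.61 ± 0.34, humanlincRNA0846+_P1 with -0.42 ± 0.23 and humanlincRNA1037+_P1 with -0.27 ± 0.19. The nearest arrays of the 2 groups were 0.036 apart for humanlincRNA1114+_P1 and 0.024 apart for humanlincRNA1037+_P1, against 0.12 for humanlincRNA1050+_P1. Normexp correction gave 1.2 for humanlincRNA1050+_P1 and 0.34, -0.21 and -0.14 for these 3. The mouselincRNA class held 1 such probe (1.12% of those detected), mouselincRNA0413-_P1, at -1.29, -0.46 and -1.15 with ISO and at -1.53, -2.27 and -2.34 with vehicle. It differed by 1.08 ± 0.55, and by 0.65 with normexp correction. All 13 probes kept their direction in all 25 alternatives, which the choice of probes without overlap in part fixes, and each had an adjusted p of 0.999 over 6 arrays.

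**Figure D5:**
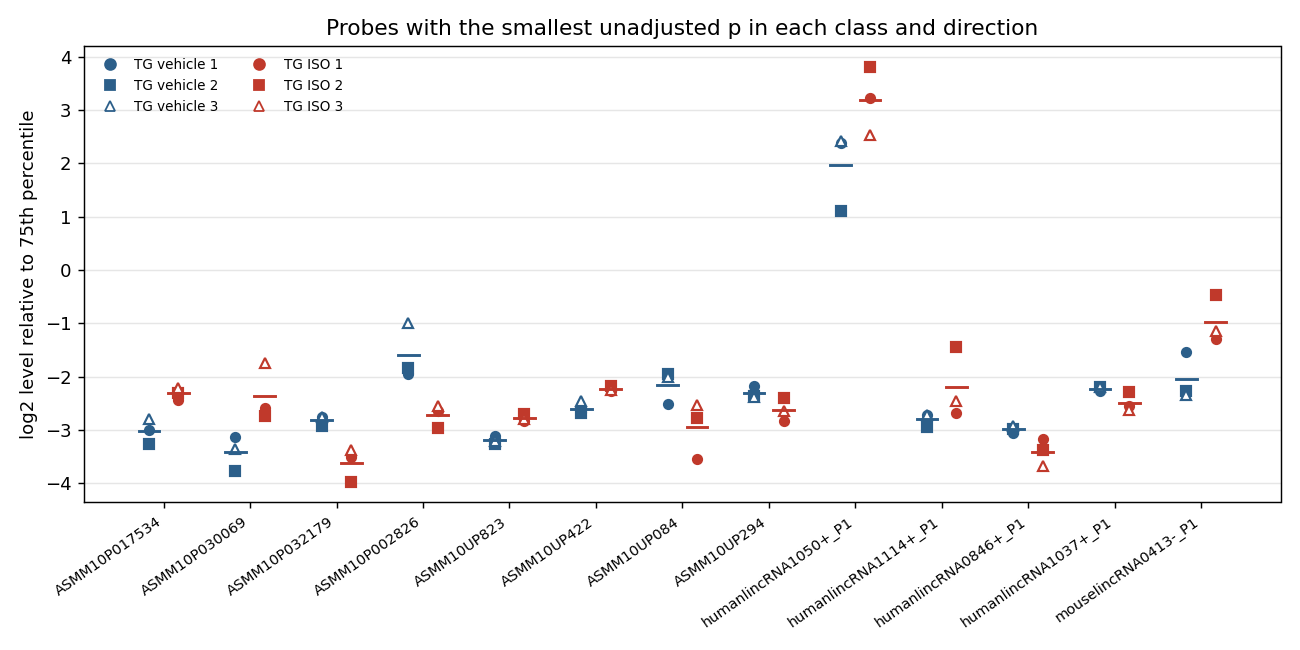
Log2 level relative to the array's 75th percentile of the 13 probes with the smallest unadjusted p per class and direction, on each TG array, vehicle in blue and ISO in red, with horizontal bars for group means and open triangles for the replicate 3 arrays. The groups do not overlap by the choice of probes, and the gap is widest for ASMM10P030069, ASMM10P032179 and ASMM10P002826 and narrowest, at 0.024 to 0.036, for humanlincRNA1037+_P1, ASMM10UP294, ASMM10UP084 and humanlincRNA1114+_P1.

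A single probe was called when scan was fitted as a block and when TG ISO 3 alone was left out, and it was the same probe, ASMM10P051385. Its level was 0.44, 0.47 and -2.92 on TG ISO 1, 2 and 3, and -3.48 and -3.24 on TG vehicle 1 and 2. The spot on TG vehicle 3 was marked as non-uniform and left out, so vehicle was represented by 2 arrays. The adjusted p was 0.00809 with scan as a block and 0.00455 without TG ISO 3, with a difference of 3.81 in each. The spot that was left out had a value of 1.67, above every ISO array, so the call rests on that omission.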

How the data were processed

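Left ventricular RNA of 12 mice was hybridised to Agilent 1-color (Cy3) arrays, 1 array per animal, after removal of ribosomal RNA and amplification with random primers. The authors deposited each array's Feature Extraction 11.0.1.1 output, in which, per the file headers, spot intensity had its background subtracted and a spatial trend removed, giving the processed signal. They also deposited a table of log2 values, normalized between arrays by a method not given in the sources used here. It served as an alternative. Groups, sex and age came from the labels, and 0 sample columns were left unused.

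Control spots and the 15 negative probes were set aside, 908 outlier spots over all arrays were left out, the 75th percentile of the remaining spots was subtracted on the log2 scale, and spots of a probe were averaged. The filter keeps probes that are dim in some groups, where background subtraction sets much of the difference. limma 3.58.1 in R 4.3.3 fitted 4 group means over 12 arrays with 8 residual degrees of freedom, and two-sided p-values were adjusted by Benjamini-Hochberg over all probes tested. Intervals marked SE come from this fit. An exact permutation test of 3 arrays against 3 cannot give a p below 0.1, so none was used. The number of arrays limits the precision. The fit was tested on simulated data.

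Alternatives changed the normalization, background correction, filter, arrays, block, covariate, weights or test. Normexp used an offset of 50 on the median spot signal, because the files hold no mean spot signal. The named probes were all housekeeping genes and, per class with at least 100 probes tested, the 2 with the smallest unadjusted p in each direction among those detected on all 6 TG arrays without overlap. Members, lists and the arrays left out were chosen with earlier results of these data known. Cell type markers and cardiac stress genes were not analysed here, since no table used here pairs their probes with genes. Other software was pandas 2.3.3 and matplotlib 3.10.9.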

Additional observations from a re-analysis of the deposited data

Results flagged for a closer look

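In Actb, ISO was above vehicle on all TG arrays and below vehicle on all DTG arrays, with no overlap in either genotype. The difference of the 2 effects was -0.98 ± 0.34 on the log2 scale (SE, limma adjusted p = 0.927), from 0.52 in TG and -0.45 in DTG, so it did not pass the adjusted threshold. Without the TG replicate 3 arrays it was -0.90 ± 0.34 (limma adjusted p = 0.128). All DTG ISO arrays were assigned to slide 1 and all TG arrays to slide 2.

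The probe humanlincRNA1050+_P1 showed the same opposition, with 1.22 in TG and -2.12 in DTG. The difference of the effects was -3.34 ± 0.80 (limma adjusted p = 0.927), and without the TG replicate 3 arrays it was -3.89 ± 0.88 (limma adjusted p = 0.0310), a call lost with slide as a block (-3.25 ± 1.02, limma adjusted p = 0.115). It was named because its TG groups do not overlap, which fixes 1 side of this pattern.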

How the results depend on the processing

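The count of probes called stayed at 0 under 14 of the 16 alternatives that kept all 6 TG arrays. The exceptions were scan as a block, with 1 call, and array weights, with 5275. At an unadjusted p under 0.05, array weights gave 14905 probes, normexp correction 398, a filter on all 12 arrays 328 and a filter on all 3 arrays of a TG group 548. The methods' t-test with a change of at least 1.5-fold gave 326. Within scan 2 alone, 3493 probes were called and 13751 passed without adjustment. Without both replicate 3 arrays of TG, 7722 were called and 14329 passed without adjustment, and 1271 and 89 probes were detected with ISO only and with vehicle only. Leaving out 1 TG array at a time gave 0 to 1 calls and 599 to 5698 probes at an unadjusted p under 0.05, the highest without TG vehicle 3. With the replicate number as a block, limma called 0 probes and 719 passed without adjustment. The labels tie no animals of the 2 groups by number, and deviations from the group means of arrays with the same number correlated at -0.39, -0.55 and -0.77 across 44739 probes. Among the housekeeping genes, Actb, whose TG groups do not overlap, kept its sign under all 25 alternatives, which the lack of overlap in part fixes, and the other 14 changed sign under 1 to 8 of them, with 0 calls in the opposite direction. Quantile normalization gave -0.030 for B2m, -0.031 for Hprt and 0.071 for Ldhal6b, and the authors' values gave -0.023 for B2m and -0.044 for Hprt. Nono turned to 0.0035 with median scaling, 0.0041 with normexp correction and 0.0059 with age as a covariate. Array weights gave 0.36 for Ldhal6b, 0.070 for Nono and -0.030 for Tbp. Within scan 2 alone, and in the same way without both replicate 3 arrays, these were 0.32, 0.031 and -0.049. With 1 TG array left out at a time, the difference ranged from -0.14 to 0.23 for B2m, -0.026 to 0.25 for G6pd2, -0.25 to 0.082 for Gapdh, -0.27 to 0.11 for Gk, -0.0032 to 0.085 for Hprt, -0.30 to 0.23 for Ldhal6b, -0.086 to 0.084 for Nono, -0.049 to 0.11 for Tbp and -0.70 to 0.14 for Tfrc. The cause of these changes was not tested. The interaction of genotype and treatment had 0 calls over 12 arrays, 8 with scan as a block, 4034 without both TG replicate 3 arrays and 1926 when slide was also a block. Dim probes were limited by the floors of TG vehicle 1 and TG ISO 3.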
